A study of Mus musculus with 60 samples.

Results

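The 9 genes Cacna1a, Cacna1b, Cacna1c, Cacna1d, Cacna1e, Cacna1g, Cacna1h, Cacna1i and Cacna1s encode the pore subunits of voltage-gated calcium channels, and the H3K27me3 peaks at their promoters and over their bodies are described here across 30 libraries. They are 9 of the 21866 protein-coding genes whose promoters were examined, and 9 of the 3179 with a promoter peak in at least 2 libraries. The family was selected because the promoter of Cacna1a was called in every KO library and in no WT library after day 2. The differences between KO and WT are therefore given as a description, without a test.

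The mark was mapped by CUT&RUN, a method that tethers a nuclease to an antibody and releases the bound chromatin, along the differentiation of mouse embryonic stem cells (ESCs) to anterior neural progenitors. The 3 genotypes were wild type (WT), Tet1 KO and Tet1 MUT, whose TET1 is catalytically dead. Libraries came from days 0, 2, 3 and 5, and a further set, called day 5 XAV, was harvested on day 5 from cells given 5 µM of the Wnt inhibitor XAV939 from day 2. All lines are labelled as B6129S6F1 Tet1 tm1Koh, and all were differentiated in N2B27 medium with bFGF up to day 3 from ESCs kept in serum and freed of feeder cells. The study describes its KO lines as derived from blastocysts, and MUT lines are clones made from a WT line by Cas9 cutting and homology-directed repair, so that a line stands for 1 embryo or 1 clone. Each genotype had 2 lines per time point: WT70 and WT72 throughout, KO15 with KO25 (days 0 and 2) or KO1 (from day 3), and CM59 with CM40 (days 0 and 2) or CM69 (from day 3). Because the second KO and MUT lines changed between day 2 and day 3, time and line cannot be told apart for them. The cells are mixtures in which fewer cells with the mark and less of the mark per cell cannot be told apart.

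Calcium channel pore subunits open when the membrane is depolarised and let calcium into the cell. The Cav1 (L-type) subunits Cacna1c, Cacna1d and Cacna1s serve the heart and neurons, pacemaking cells and inner hair cells, and skeletal muscle. The Cav2 subunits Cacna1a (P/Q-type), Cacna1b (N-type) and Cacna1e (R-type) serve transmitter release at synapses, and the Cav3 (T-type) subunits Cacna1g, Cacna1h and Cacna1i open at low voltage and shape rhythmic firing. H3K27me3 is the mark that Polycomb repressive complex 2 lays down at silent genes, often at CpG-rich start sites of developmental genes, and TET1 oxidises methylated cytosine in CpG sites.

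Sequences are shown first for start sites that differ in CpG content and in calls, because H3K27me3 covered one cluster of Cacna1c starts and none of the gene's other starts. They were taken from RefSeq (GRCm38.p6), lie just before a start site where no annotated exon reaches, and carry CG dinucleotides in capitals. The stretch at the called cluster of Cacna1c (chr6:119108621-119108745, minus strand, 125 bases with 24 CG) belongs to a promoter called in 30 of 30 libraries. The stretch at a more internal Cacna1c start (chr6:118757975-118758224, minus strand, 250 bases with 5 CG) belongs to one called in 0 libraries. The stretch at Cacna1d (chr14:30353487-30353736, minus strand, 250 bases with 50 CG) was called in 4 libraries, and that at Cacna1i (chr15:80286988-80287237, plus strand, 250 bases with 16 CG) in 26.
Cacna1c, called start cluster: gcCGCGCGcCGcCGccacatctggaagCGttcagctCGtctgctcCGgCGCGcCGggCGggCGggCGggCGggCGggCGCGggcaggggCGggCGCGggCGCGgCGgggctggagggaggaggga
Cacna1c, internal start: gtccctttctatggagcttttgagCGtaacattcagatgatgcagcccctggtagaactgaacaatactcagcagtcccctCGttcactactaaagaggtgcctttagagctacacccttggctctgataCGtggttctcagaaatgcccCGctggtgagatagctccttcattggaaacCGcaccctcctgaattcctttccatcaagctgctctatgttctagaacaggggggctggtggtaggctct
Cacna1d: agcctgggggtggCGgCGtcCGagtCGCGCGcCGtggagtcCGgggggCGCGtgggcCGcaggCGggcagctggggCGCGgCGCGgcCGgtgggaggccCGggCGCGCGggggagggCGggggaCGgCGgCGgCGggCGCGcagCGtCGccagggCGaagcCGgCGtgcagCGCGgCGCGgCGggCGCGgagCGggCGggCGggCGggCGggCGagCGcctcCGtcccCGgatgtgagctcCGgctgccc
Cacna1i: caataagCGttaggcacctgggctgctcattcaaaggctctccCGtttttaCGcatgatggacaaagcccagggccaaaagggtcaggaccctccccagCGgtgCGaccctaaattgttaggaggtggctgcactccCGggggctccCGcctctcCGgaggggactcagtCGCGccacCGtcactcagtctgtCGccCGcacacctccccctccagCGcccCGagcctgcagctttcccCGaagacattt

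In the 300 bases around each RefSeq start (250 before and 50 after it), 6 of the 9 genes had an entry, with 9 starts between them, and Cacna1a, Cacna1g and Cacna1h had none. CG dinucleotides were searched as CG, which reads the same on both strands, and 94.57% of the 32851 promoters in the table held at least 1. The called Cacna1c start had 57 CG in 300 bases, a number reached by 0.152% of all promoters. The 2 uncalled Cacna1c starts had 3 and 7. The called Cacna1d start had 63, reached by 0.03% of promoters, against 4 at its uncalled start, yet it was called in only 4 libraries. Cacna1e, with 11 CG, was called in 25 libraries and Cacna1i, with 23, in 26, whereas Cacna1b with 35 was called in 3 and Cacna1s with 9 in 11. In Cacna1c and Cacna1d, the only members with more than 1 RefSeq start, the CG-rich start was the called one. Between genes the number of calls did not follow the CG count. Over the whole table, the share of promoters called in at least 2 libraries went from 2.97% at 0 to 4 CG to 23.5% at 40 or more.

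**Figure D1:**
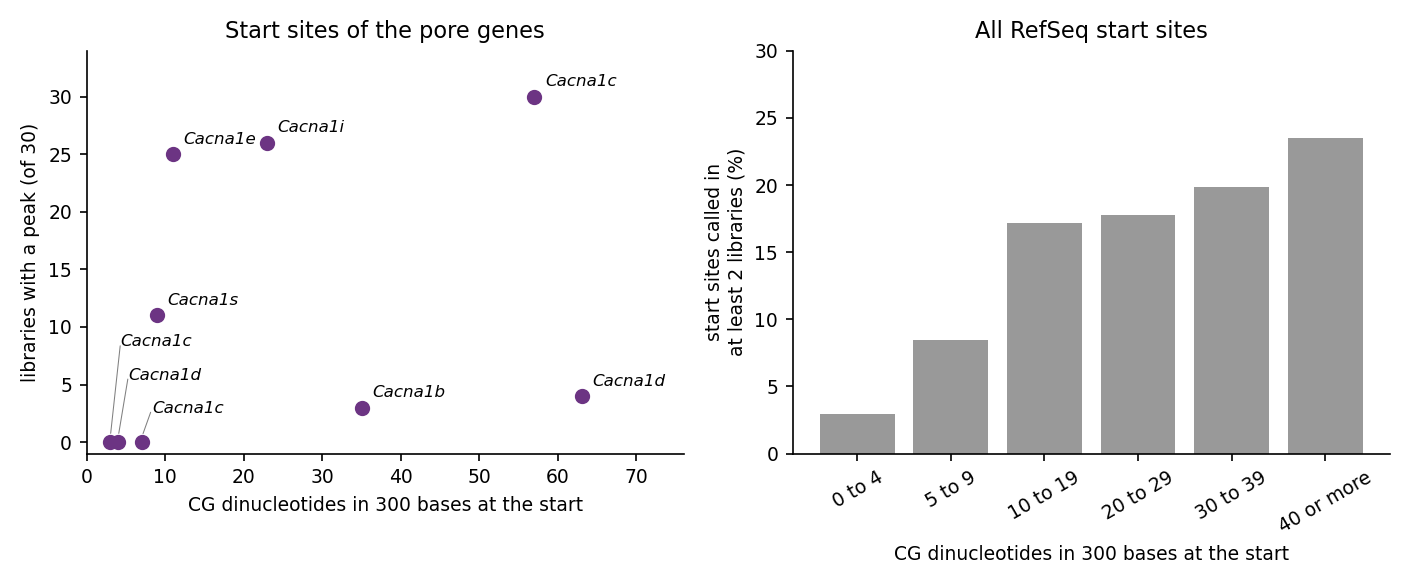
CG dinucleotides in the 300 bases at each RefSeq start (horizontal axes). Left, libraries of 30 with a peak within 1.5 kb of the start (vertical axis) for the 9 starts of 6 pore genes, where Cacna1d has the most CG (63) and 4 calls and the 3 starts with 7 CG or fewer have none. Right, bars give the percent of all RefSeq starts called in at least 2 libraries in each CG class, from 2.97% to 23.5%.

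The number of peaks per library ranged from 704 to 3466 with a median of 1789, and it moved with the number of pore genes called. The 4 libraries with 2847 peaks or more, WT72, KO25 and CM40 at day 0 and CM59 at day 5, each had 8 of the 9 genes called, and the library with 704 peaks, CM59 at day 5 XAV, had 2. After day 2, KO libraries held 1729 to 2738 peaks and WT libraries 969 to 1717, so the ranges did not overlap, while MUT libraries spanned 704 to 2847. The part of peak number in the differences below was not tested by a model. The KO and WT counts of Cacna1a, Cacna1e and the T-type genes are also given at equal peak numbers, and those of the gene bodies and the partner genes are not. Of the marker promoters, 0 of 8 housekeeping genes had a call in any library, and Pax6 and Foxa2 had one in all 30. The 6 pluripotency genes differed from each other. Pou5f1 had 0 of 12 calls at days 0 and 2 and 11 of 18 afterwards, Klf4 had 6 and 15, and Tfcp2l1 had 0 and 3. Esrrb was called in all 30 libraries, and Nanog and Zfp42 in 0. The Tet1 promoter had a peak in 0 libraries, and peaks do not show whether the allele is deleted.

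**Figure D2:**
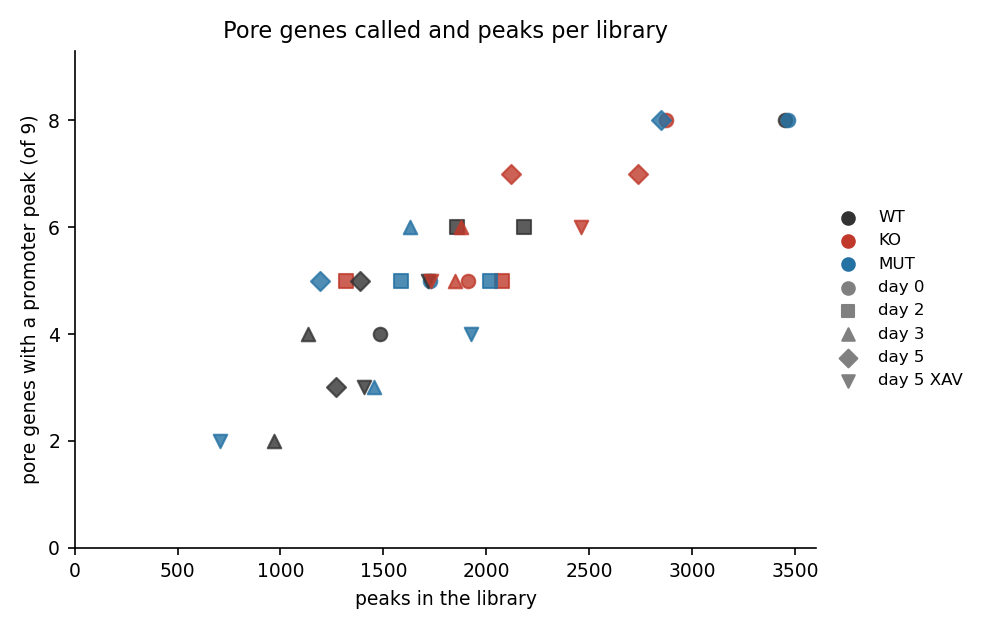
Pore genes with a promoter peak (vertical axis, of 9) against the number of peaks in the library (horizontal axis), 1 point per library, coloured by genotype and shaped by time point. The 4 libraries with 2847 or more peaks have 8 genes called and the library with 704 peaks has 2.

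The family fell into promoters called nearly everywhere, at times and rarely. Cacna1c was called in all 30 libraries, Cacna1h in 27, Cacna1i in 26, Cacna1e in 25, Cacna1g in 22, Cacna1s in 11, Cacna1a in 8, Cacna1d in 4 and Cacna1b in 3. The X-linked pore gene Cacna1f, the only other one, was called in 0. The strength of a peak is given below as a percentile: the share of peaks in the same library with a total signal no higher than its own. Thus 100 is the strongest peak and 0 means no peak. A peak of the same rank from the top has a higher percentile in a library with more peaks, so percentiles also move with peak number. One member of 9 was called in all 30 libraries, against 13.8% of the promoters called in at least 2. One, Cacna1a, was absent from all 12 libraries of days 0 and 2 and appeared later, against 9.03%. One, Cacna1b, was called early and in none of the 18 later libraries, against 18.2%. With 9 genes, these counts set the members apart from the background in no direction.

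**Figure D3:**
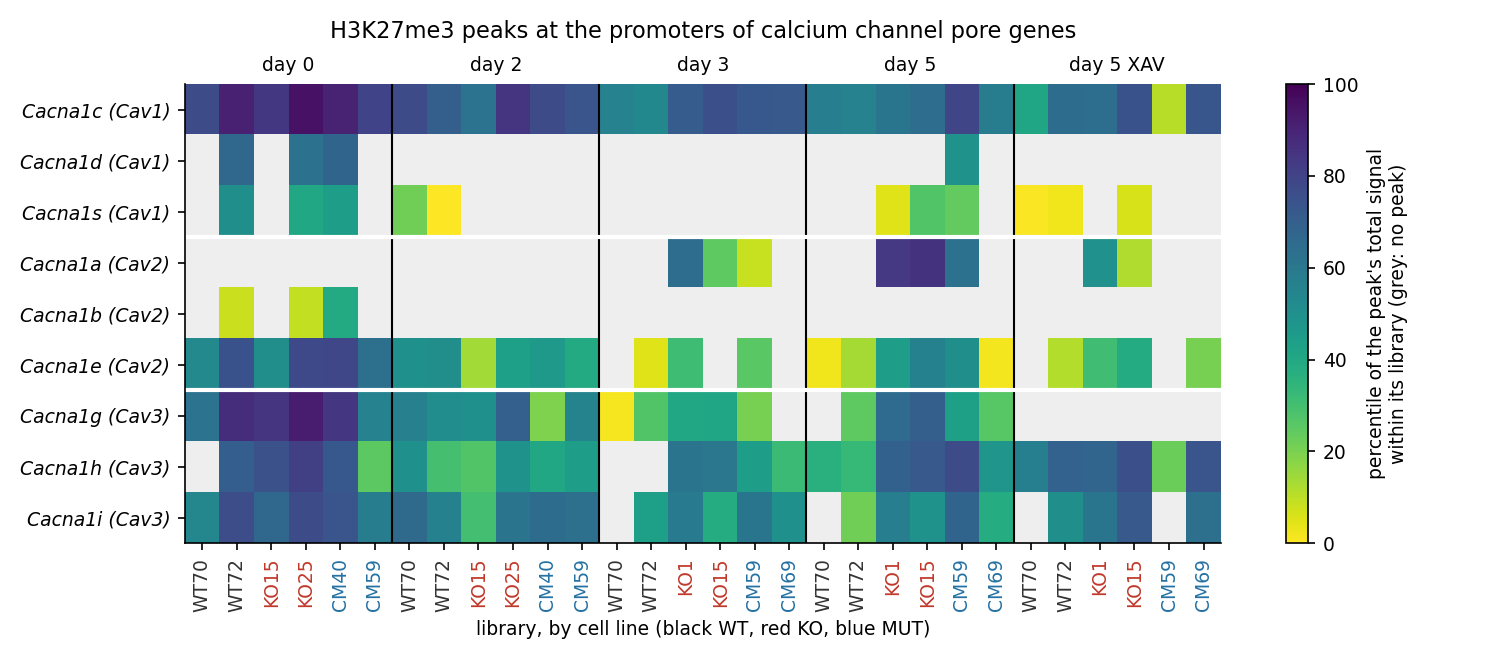
Percentile of the strongest H3K27me3 peak at each promoter within its library (colour, 0 to 100, grey where no peak was called) for the 9 pore genes (rows, grouped by subfamily) in the 30 libraries (columns, by time point and line). Cacna1a is grey in all 12 libraries of days 0 and 2 and in all WT libraries, and Cacna1g is grey in all 6 day 5 XAV libraries.

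Cacna1a, the P/Q-type pore of cerebellar and presynaptic neurons (ENSMUSG00000034656.17, chr8:84388440-84640246, plus strand), had no peak in any of the 12 libraries of days 0 and 2, in all 3 genotypes. At day 3 the percentile was 64.4 in KO1, 24.8 in KO15 and 8.52 in CM59, and 0 in WT70, WT72 and CM69. At day 5 it was 83.2 in KO1, 85.2 in KO15 and 62.7 in CM59, and again 0 in both WT lines and in CM69. At day 5 XAV it was 49.3 in KO1 and 12.1 in KO15 and 0 in the other 4 libraries. The 6 KO libraries after day 2 thus lay above all 6 WT libraries, with a mean of 53.2 ± 30.2 (SD, n = 6) against 0. MUT libraries stood at 11.9 ± 25.1 (n = 6), from the CM59 peaks at day 3 and day 5. CM59 at day 5 XAV and all CM69 libraries had no peak. This pattern of 6 KO and 0 WT libraries chose the gene. It was shared by 49 of 2229 genes called in at least 2 of these 12 libraries (2.2%), and nothing is read from it. The number of such genes was 124 without KO1, 75 without KO15 and 125 without WT72, since fewer libraries then had to meet it.

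The depth behind the KO calls of Cacna1a differed. Counted from the strongest peak, it was peak 357 of 2122 in KO1 and 405 of 2738 in KO15 at day 5, so it would lie within the 1270 peaks of the smaller WT library of that day. Of the 6 KO peaks, 4 ranked within the number of peaks in the smaller WT library of the same time point. The exceptions were KO15 at day 3, with rank 1392 against 969 WT peaks, and KO15 at day 5 XAV, with rank 2165 against 1407. When every library was held to its 704 strongest peaks, 3 of 6 KO and 0 of 6 WT libraries were called. With equal numbers within each time point the counts were again 3 and 0, and 4 and 0 when CM59 at day 5 XAV was left out. The WT counts could only be 0, because fewer peaks cannot add a call and the gene was chosen for having none in WT. Without either KO line, the other line kept all 3 of its calls, which the choice of the gene also fixed. Nothing is read from these WT counts or from leaving out a line.

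The Cacna1a peaks merged into chr8:84410375-84420907, a region of 10533 bp that holds all 3 protein-coding start sites and lies wholly inside the annotated gene, with 580 bp in exons and 9953 bp in introns. Its width in single libraries was 2682 bp in KO15 and 3248 bp in CM59 at day 3, and 10449 bp in KO1 and 10363 bp in KO15 at day 5. A second region inside the gene, chr8:84555044-84562925 (7882 bp, 782 bp of it exonic, with no start site), was called in KO1, KO15 and CM59 at day 5 and in no other library.

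**Figure D4:**
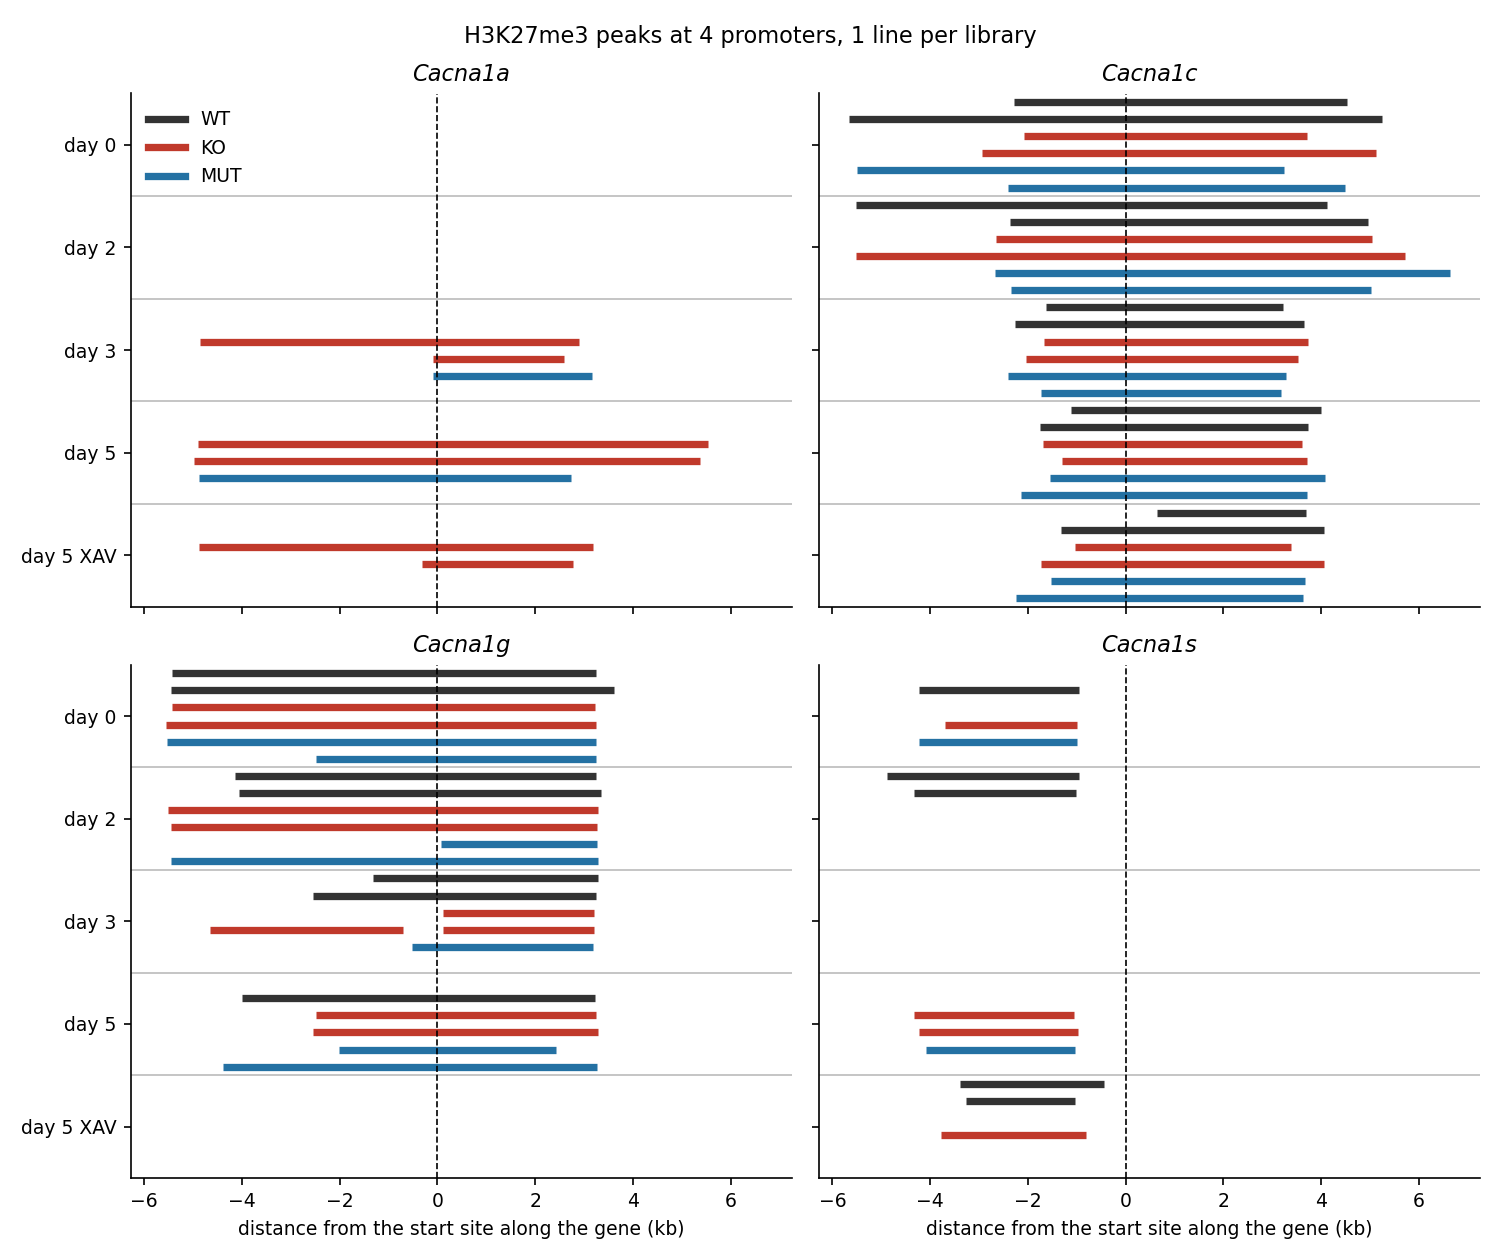
Peaks at the promoters of Cacna1a, Cacna1c, Cacna1g and Cacna1s, each drawn as a bar from edge to edge by distance from the outermost called start site along the gene (horizontal axis, kb) in the 30 libraries (vertical axis, grouped by time point, coloured by genotype). Cacna1a bars appear from day 3 in KO and MUT, Cacna1c has a bar in every library, Cacna1g has none at day 5 XAV, and Cacna1s bars lie wholly before the start.

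The other Cav2 genes were called from day 0. Cacna1b, the N-type pore (ENSMUSG00000004113.18), was called only at day 0, at percentiles of 8.12 in WT72, 9.36 in KO25 and 38.8 in CM40. Those are the 3 libraries with the most peaks, 1 of each genotype, and the other line of each had none. A further region in its body (chr2:24676879-24682188) was called in 4 day 0 libraries. Cacna1e, the R-type pore (ENSMUSG00000004110.16), was called in all 12 libraries of days 0 and 2, at 13.9 to 78.6. After day 2 the WT percentiles were 0 and 5.02 at day 3, 2.13 and 13.6 at day 5 and 0 and 11.7 at day 5 XAV, with a mean of 5.40 ± 5.92 (SD, n = 6). KO libraries stood at 31.0 and 0, 44.2 and 56.1, and 30.5 and 38.6 at the same times (33.4 ± 18.9). By percentile, 1 KO library thus lay among the WT values and the other 5 above them. MUT libraries, at 0 to 50.2, overlapped both. In KO the percentile was 13.9 in KO15 and 43.7 in KO25 at day 2, so by percentile it was not lower at day 5 than at day 2. By rank from the top it was 1135 and 1170 in these day 2 libraries, slightly nearer the top than at day 5. Counted from the strongest peak, the day 5 ranks were close, at 1244 and 1198 in WT and 1185 and 1202 in KO. At day 3 the rank was 1079 in WT72 and 1297 in KO1. At day 5 XAV it was 1518 in WT72, 1203 in KO1 and 1511 in KO15. At equal peak numbers within each time point 1 late KO library and 0 late WT libraries had the Cacna1e call, and at 704 peaks 0 of either had it.

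Among the T-type genes, all 3 were called early, and the mean percentile was lower in WT than in KO later. Cacna1h (ENSMUSG00000024112.16) had a peak after day 2 in all 6 KO, all 6 MUT and 4 of the 6 WT libraries. Its WT percentiles were 0 in both lines at day 3, 36.6 and 33.0 at day 5, and 56.9 and 68.7 at day 5 XAV, against 60.5 to 75.8 in KO, so that 1 WT library reached the KO range. Cacna1i (ENSMUSG00000022416.15) was called in 6 KO, 5 MUT and 3 WT libraries. All 3 WT calls were in WT72, at 43.4, 21.5 and 50.3, and WT70 had none after day 2, so the 2 WT lines differed from each other throughout. The KO values of Cacna1i, 38.0 to 71.9, overlapped those of WT72. Cacna1g (ENSMUSG00000020866.17) was called in 4 KO, 3 MUT and 3 WT libraries, and its mean percentile was 36.0 ± 30.4 in KO and 8.89 ± 13.2 in WT (SD, n = 6 each). At equal peak numbers within each time point the order of Cacna1g turned, with 2 KO and 3 WT libraries called, while Cacna1h had 6 and 4 and Cacna1i 4 and 2. At 704 peaks the counts were 3 and 2 for Cacna1h, 2 and 1 for Cacna1i and 0 and 0 for Cacna1g.

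Of the Cav1 genes, Cacna1c (ENSMUSG00000051331.15) had the steadiest peak. Its percentile was 69.6 to 90.7 in WT at days 0 and 2 and 40.8 to 64.7 afterwards, and 61.7 to 95.1 and then 61.2 to 75.7 in KO. The ranges of KO and WT after day 2 overlapped, with means of 68.4 ± 6.19 and 54.6 ± 7.80 (SD, n = 6 each). By rank from the top this order did not hold. At day 5 the ranks were 542 and 616 in WT and 825 and 984 in KO. At day 3 they were 431 and 532 in WT and 547 and 451 in KO, and at day 5 XAV 834 and 607 against 627 and 622. The peak was also wider early, with WT medians of 8484 bp at days 0 and 2 and 5254 bp later. Cacna1d (ENSMUSG00000015968.17) was called in WT72, KO25 and CM40 at day 0, at 66.4, 62.4 and 67.9, and in CM59 at day 5, at 48.5. These are the 4 libraries with the most peaks, but the peak was not among their weakest. Cacna1s, the skeletal muscle pore (ENSMUSG00000026407.17), was called in 11 libraries at 0.0539 to 50.1. Its peaks lay before the start site in chr1:136047872-136052302, contained none of its starts, and overlapped 567 bp of the neighbouring gene Ascl5, so they cannot be assigned to Cacna1s over that gene.

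Taking the family as a list, 7 members were called in at least 2 of the 12 KO and WT libraries after day 2. Of these, 6 were called in more KO than WT libraries and 0 in fewer, with a median difference of 1 library. Among all 2229 such genes, 64.0% were called in more KO libraries and 3.86% in fewer, with a median difference of 2 libraries. Of the 6 members, Cacna1e, Cacna1g and Cacna1s differed by only 1 library. The order of Cacna1g turned at equal peak numbers within each time point, and the Cacna1s peaks cannot be assigned to it over Ascl5. The members were called in 6.00 ± 0.894 genes per KO library, 3.67 ± 1.21 per WT library and 4.67 ± 2.16 per MUT library (SD, n = 6 each), and KO (5 to 7) and WT (2 to 5) met at 5. At 704 peaks per library the KO and WT means were 2.00 and 1.33. At days 0 and 2 the means were 5.75 ± 1.50 in KO, 6.00 ± 1.63 in WT and 5.75 ± 1.50 in MUT (n = 4 each). Counting a peak anywhere over the gene in place of the promoter gave 5.50 ± 0.548 in KO and 3.33 ± 1.21 in WT after day 2. Cacna1a is 1 of the 6 members with more KO calls and is counted in all the KO and WT means after day 2. It was chosen for this pattern, so its part of these differences was fixed in advance. At 704 peaks it could again have no WT call.

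The comparison of MUT and WT shares its WT libraries with the choice of Cacna1a. It asks whether losing catalysis alone goes with a difference over all time points. Days 0 and 2 are included, so it does not ask about the difference after day 2 alone. All 9 members entered an exact two-sided permutation test of genotype within time points over 20 libraries, adjusted by the Benjamini-Hochberg method over 2896 genes. None passed on calls or on percentiles, and neither did any other gene (0.0% of genes on calls and 0.0% on percentiles). Without adjustment, 13 genes had an exact p under 0.05 on calls and 93 on percentiles, none of them a member. The largest member difference was that of Cacna1i, with 53.9 ± 21.4 in MUT and 36.7 ± 29 in WT (SD, n = 10 each, difference 17.3, exact p = 0.0977, adjusted p = 1.0). Cacna1h differed by 13.3 (47.8 ± 20.0 and 34.5 ± 27.5, exact p = 0.205) and was called in 10 MUT and 7 WT libraries. Cacna1a stood at 7.12 ± 19.7 in MUT, from 2 libraries of the line CM59, and at 0 in WT. Because its absence from WT libraries chose it, and it entered only through its 2 MUT calls, nothing is read from its test. After day 2, 3 of the 7 members called in at least 2 MUT or WT libraries had more MUT calls and 1 had fewer, and 43.1% of all 1848 such genes had more MUT calls. Cacna1a, chosen for its absence from WT, is 1 of the members with more. A p above the threshold with 2 lines per time point does not show that MUT and WT were alike.

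**Figure D5:**
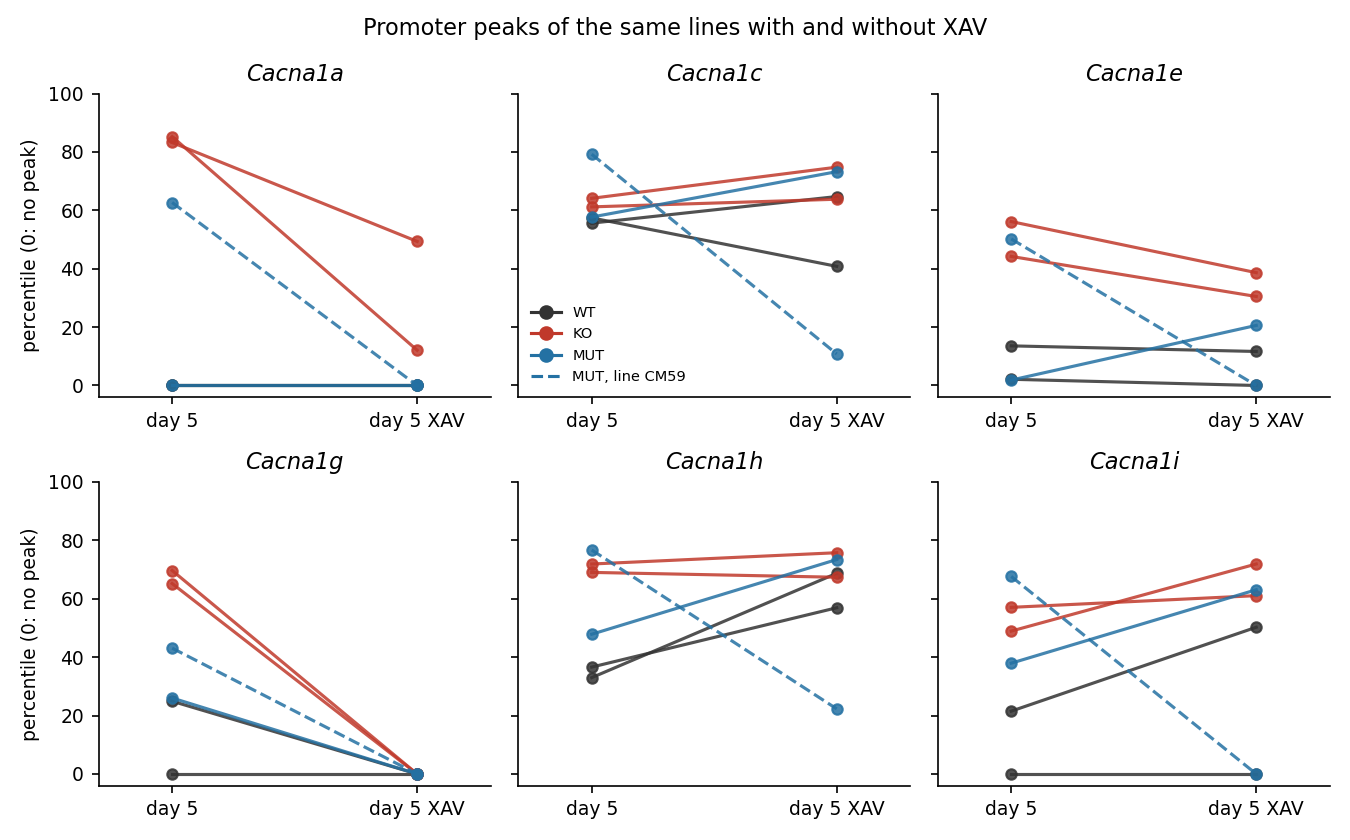
Percentile of the promoter peak (vertical axis, 0 where none was called) at day 5 and day 5 XAV (horizontal axis) for 6 pore genes, with lines joining the same cell line and colours for the genotypes. Cacna1g goes to 0 in all 5 lines that had a peak, and the dashed line CM59, whose XAV library had 704 peaks, goes down in every panel.

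XAV had its clearest association with Cacna1g, a T-type pore of thalamic and other rhythmic neurons. At day 5 its percentile was 24.9 in WT72, 65.2 in KO1, 69.7 in KO15, 43.1 in CM59 and 26.0 in CM69, with no peak in WT70, and at day 5 XAV it was 0 in all 6 libraries. The promoter had been called in all 12 libraries of days 0 and 2 and in 5 of 6 at day 3. The mean fell from 38.2 ± 26.6 (SD, n = 6) to 0, with an exact two-sided p of 0.0278 by permutation within genotypes and an adjusted p of 0.553 over 2348 genes, so the difference did not pass the threshold. The smallest p this permutation test can give is 0.00926, so no gene could pass over 2348 genes on its own. With the same lines paired, the exact p was 0.0625. For 4 of the 5 lines, the rank of the day 5 peak was within the number of peaks in the XAV library of the same line, and CM59 was the exception. Only 2 of the 2348 genes, Cacna1g and Zfp853, were called in at least 5 of 6 day 5 libraries and in none with XAV (0.0852%, a cut-off chosen after the values were seen). At equal peak numbers within each time point Cacna1g was called in 66.7 percentage points fewer XAV libraries in place of 83.3 (exact p = 0.0833). That setting keeps 1191 peaks at day 5 and 704 with XAV, so it favours calls at day 5. Leaving out any of the lines KO1, KO15, CM59 or CM69 also gave an exact p of 0.0833, and leaving out WT72 gave 0.0556. At 704 peaks in every library too few calls of the promoter were left to test. The Cacna1g region, chr11:94470589-94479752, holds both its starts and overlaps 849 bp of the neighbouring gene Spata20.

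The other members moved less or in both directions. Cacna1a went from 83.2 to 49.3 in KO1, from 85.2 to 12.1 in KO15 and from 62.7 to 0 in CM59, and was 0 at both times in WT70, WT72 and CM69. These values are given without a test, because the calls in KO and their absence in WT at both times chose the gene. Its peak was lower in 3 of the 3 lines that had one, 1 of which is the line with 704 peaks under XAV. Cacna1e was lower with XAV in 5 of 6 lines (difference -11.1, exact p = 0.222). The percentile of Cacna1h was higher in 4 of 6 lines (mean difference 4.90, exact permutation p = 0.657). It went from 36.6 to 56.9 in WT70, from 33.0 to 68.7 in WT72 and from 76.7 to 22.3 in CM59. The rank from the top in CM59 was 664 of 2847 peaks at day 5 and 548 of 704 with XAV, so by rank the peak was not lower. Cacna1i was higher in 4 lines and Cacna1c in 4 of 6. No gene passed the adjusted threshold on calls or on percentiles (0.0% and 0.0% of 2348 genes), while 9 and 153 had an exact p under 0.05. With a smallest possible p of 0.00926 for this permutation test, a pass needed many genes at that value. The lack of a pass therefore does not show that XAV made no difference.

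Outside the family, the promoters whose calls were most like those of Cacna1a over the 30 libraries were those of Abca17, Abca3 and Rbmxl2, followed by 1190005I06Rik, Gjd3 and Tubb2b, which tie. The measure was the Jaccard index, the libraries called for both genes divided by those called for either, which was 0.778 for the first 3 and 0.75 for the 3 that tie. Abca17 and Abca3 are both on chromosome 17 and were called in the same numbers of libraries, 5 KO, 0 WT and 2 MUT after day 2. Cacna1a shared 7 of 9 libraries with Rbmxl2. Among pairs of members the index was highest for those called nearly everywhere, 0.9 for Cacna1c and Cacna1h and 0.889 for Cacna1e and Cacna1i. Of the rarely called members, Cacna1b and Cacna1d shared 3 of 4 libraries (0.75), the 3 with the most peaks.

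The partners of the pores were looked at as lists. Of 16 auxiliary subunits, which traffic the pores to the membrane and tune their gating, 9 had a call in any library. Of the 7 called in at least 2 of the 12 KO and WT libraries after day 2, 6 were called in more KO than WT libraries and 0 in fewer. The named ones are Cacnb4 (6 KO and 1 WT of 6), Cacnb3 (4 and 0) and Cacng4 (6 and 2). Of 11 genes for intracellular calcium release and store-operated channels, 3 had a call, and 2 of the 2 that met the same minimum had more KO calls. Of these, Ryr3, a ryanodine receptor, had 4 KO and 1 WT. Of 12 presynaptic partners of the channels, 5 had a call, and 3 of the 3 that met it had more KO calls, with Rims1, an active zone scaffold that binds Cav2 channels, at 5 KO and 0 WT and Syt1, the calcium sensor of release, at 3 and 0. Of 10 voltage-gated sodium channel pore genes, the nearest relatives of the calcium pores, 1 had a call. No list had a gene past the adjusted threshold for MUT and WT or for XAV by the exact permutation tests, and the counts of genes that met the minimum stand beside the 64.0% of all such genes with more KO calls.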

How the data were processed

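Reads were trimmed (Trim Galore), mapped locally with bowtie to the GRCm38.p6 build (mm10) and freed of duplicates (Picard) by the authors, who then ran SEACR in stringent mode on each library with IgG as control. The SEACR version is not given in the sources used here. The deposited values are the total signal and the highest signal of each peak, not scaled for library size by the authors, and were used only as ranks within a library. Read depth is unknown, which leaves no interval for counting error, and peak numbers (704 to 3466) are reported as the measure of library yield. Deposited region lists from the authors' comparison of KO and WT (DiffBind 3.0.15) hold positions and were not used. The description field of the KO25 samples at days 0 and 2 refers to WT70, and their title, cell line and genotype were followed.

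A promoter was called where a peak overlapped, by at least 1 bp, the 1.5 kb to either side of a start of a protein-coding transcript in GENCODE M21. Tests were exact two-sided permutation tests within time points (MUT and WT) or genotypes (XAV) on genes called in at least 2 of the libraries compared, adjusted by the Benjamini-Hochberg method with a threshold of 0.05. The smallest p they can give is 0.000257 for MUT and WT, 0.00926 for XAV and 0.0312 for XAV with the lines paired. For XAV, paired or not, a gene can pass the adjusted threshold only if many others also reach the smallest p. Libraries of 1 line at different days were treated as separate. Labels were swapped only within a time point or a genotype, so p-values measure the spread between libraries there, not between days. The same lines recur over days and count anew each time, so the MUT and WT p-values can be smaller than so few lines bear out. The SDs pool libraries over days, XAV or genotypes, so they are not a spread between independent lines of 1 condition. The test script was tested on simulated data. The day 5 and day 5 XAV libraries share their cell lines, which pairs them, and deviations of the lines correlated at 0.168 in WT, 0.171 in KO and -0.337 in MUT. Alternatives were other windows (3 kb and 0.5 kb), an overlap of 500 bp, equal peak numbers, ranks by the highest signal, paired lines and leaving out libraries or lines. Named genes are the 9 members, the 5 most like Cacna1a (with Tubb2b, which ties with the last, added after the values were seen) and, in each other list, up to 3 with the largest difference of at least 2 libraries between KO and WT after day 2. The lists of pluripotency, neuroectoderm, and primitive streak, mesoderm and endoderm markers had more KO than WT calls after day 2 at 2 of 4, 2 of 5 and 0 of 6 of the genes called in at least 2 of those libraries. Members and lists were chosen with earlier results of these data known. Python 3.11.15, NumPy 2.4.6, pandas 2.3.3 and Matplotlib 3.10.9 were used.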

Additional observations from a re-analysis of the deposited data

Results flagged for a closer look

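The percentile of the Cacna1c peak in MUT libraries after day 2 had 1 value far from the others: 10.8 in CM59 at day 5 XAV, the library with 704 peaks, against 57.7 to 79.2 in the other 5. Of 13 groups of values examined in this way, 1 stood out, and chance alone marks about 1 in 20. Counted from the strongest peak, the flagged peak was 629 of 704, and that of CM59 at day 5 was 593 of 2847. The 2 ranks were thus close, while the percentiles were 10.8 and 79.2.

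Under XAV the percentile of the peak upstream of Cacna1s went up in both WT lines (0 to 0.498 and 0 to 2.21) and down in both KO lines (4.99 to 0 and 27.1 to 6.14), a difference between the mean effects of 14.4 (WT minus KO). The difference was not tested. The peak overlaps Ascl5, and both WT values are among the weakest peaks of their libraries.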

How the results depend on the processing

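The number of genes called in all KO and no WT libraries after day 2, 49 as reported, was 5 at 704 peaks in every library, 2 at equal numbers within each time point and 8 at those numbers without CM59 at day 5 XAV (added after the data were seen), and 58 to 125 with 1 line left out. The KO minus WT difference in members called per library was 2.33 as reported, 0.667 at 704 peaks and 1.33 to 3.33 with 1 line left out. It includes Cacna1a, which was chosen for its difference between KO and WT. The tests of MUT against WT and of XAV passed 0 genes throughout, except for 13 genes on the MUT percentile at equal numbers without CM59 at day 5 XAV (the cause was not tested), and 468 on the XAV percentile at equal numbers within each time point. The latter keeps 1191 peaks at day 5 and 704 with XAV, which lowers XAV percentiles by construction. In it Cacna1c differed by -30.8 (exact permutation test, adjusted p = 0.0275) and Cacna1h by -17.4. With the replicate block of paired lines, XAV again passed 0 genes, 3 had an unadjusted exact p under 0.05 on calls and 64 on percentiles, and no call of a member changed.

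Members that missed the threshold changed direction as follows. For MUT and WT percentiles, Cacna1g was 0.151 by the highest signal and -7.51 to 6.50 with 1 line left out, Cacna1d -1.78 to 11.6 with 1 line left out, and Cacna1s -5.04 to 2.43, and the calls of Cacna1i ranged from -10.0 to 50.0 points. For XAV percentiles, Cacna1c was 2.56 without the library with the fewest peaks, 12.8 at equal numbers without it and -21.8 to 6.15 with 1 line left out, Cacna1e was 2.02 at those equal numbers and -22.6 to 0.367 with 1 line left out, and Cacna1h was -8.43 to 18.2. Cacna1i was -14.4 at equal numbers within each time point, -3.60 by the highest signal and -13.3 to 17.7 with 1 line left out, and on calls 33.3 points at 704 peaks and 16.7 at equal numbers without CM59 at day 5 XAV. For KO minus WT libraries after day 2, Cacna1g was -16.7 points at equal numbers within each time point with or without that library, Cacna1s -16.7 with the 0.5 kb window and at equal numbers without that library, and Cacna1e -16.7 to 50.0 with 1 line left out, the lowest without WT70.

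Limits: 2 lines per genotype and time point, 1 of which changes after day 2 in KO and MUT, a peak number that differs between KO and WT, and no read depth.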

Other observations

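Among markers of cell identity, Klf4, a factor of naive pluripotency, was called after day 2 in 6 KO, 4 WT and 5 MUT libraries of 6 each. Tfcp2l1, of the same list, was called in 2 KO, 0 WT and 1 MUT libraries, and Sox2, which neural progenitors share with pluripotent cells, in 2 KO, 0 WT and 0 MUT libraries. Neither Tfcp2l1 nor Sox2 had a promoter peak in the 12 libraries of days 0 and 2, while Klf4 had one in 6 of them.

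The other markers differed less between KO and WT. Pou5f1 was called after day 2 in 4 KO and 4 WT libraries, Nanog and Zfp42 in 0 of each, and Esrrb, Pax6, Lhx5 and Six3 in 6 of each. Mixl1, a marker of the primitive streak, was called in 3 KO and 4 WT libraries. Of all genes called in at least 2 of these 12 libraries, 64.0% had more KO calls. These genes were named after their values were seen.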
